A study of Homo sapiens with 20 samples.

Results

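Regions recurrently lost after decitabine had a called accessibility peak in Mock cells of at least 2 lung cancer lines and in no treated cells. They are defined by peak calls, and the signal of treated cells at these regions was not measured. The broad peaks of 8 Omni-ATAC-seq libraries were pooled and peaks sharing at least 1 bp were merged into 208376 regions. Of these, 2646 had a peak in the Mock list of at least 2 lines and in no list of treated cells. The counterpart, with a peak in the treated list of at least 2 lines and in no Mock list, comprised 11875 gained regions. A further set used for comparison was the 59830 regions in the Mock list of at least 2 lines, whatever their state after treatment, and the lost regions are part of it.

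Accessible chromatin was profiled by Omni-ATAC-seq, which tags open DNA with a transposase, in A549, H1299, CL1-5 and PC9 cells, and mRNA-seq in these lines and in CL1-0 and H1792. All are established human lung cancer cell lines. Mock cells received PBS. Treated cells received decitabine (DAC) at 100 nM for 72 h, and then grew without drug for 3 days. There was 1 library per line, treatment and assay, so the cell lines served as the replicates. The peak lists held 45354 to 85710 peaks in Mock cells and 63541 to 97584 peaks after DAC, and the DAC list was the longer one in 4 of 4 lines. The number of reads behind each ATAC library is not in the peak lists. Peak names in 4 of the 8 lists carry the other line of the pair CL1-5 and PC9 than their sample labels do. Libraries are called by their labels below, and the membership of a lost region does not depend on this exchange, since it needs only a count of lines. The mRNA-seq data bear on this. A promoter peak was listed for 62.1% of the 593 genes that PC9 but not CL1-5 expressed in the Mock library labelled CL1-5, and for 37.8% of them in that labelled PC9. For the 615 genes with the opposite pattern the shares were 35.6% and 46.8%. In both comparisons the share was higher in the library whose peak names, not its label, carry the line that expressed the genes. Bulk libraries cannot tell fewer open cells from less open chromatin in every cell.

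Accessible regions away from gene starts are mostly enhancers and other regulatory elements, where transcription factors displace nucleosomes. DAC is a cytidine analog that is incorporated into DNA and depletes DNA methyltransferases, so that methylation at CpG dinucleotides is diluted as cells divide. Demethylation is best known for opening chromatin and gene promoters that were silenced at CpG-rich sequences. AP-1, the dimer of FOS and JUN family proteins, binds the motif TGANTCA and is a main occupant of distal enhancers in epithelial cancer cells.

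The 6 sequences that follow were chosen by peak strength, outside annotated untranslated regions, and are not typical of lost regions. Ranked by fold enrichment within each list, their regions had mean percentiles of 57.3 to 97.9. The median lost peak stood at 25.5 to 29.3. Regions on chromosomes 8 and Y and on other contigs were left out of this choice. The first and second belong to the strongest regions present in 4 of 4 Mock lists, the next 3 sequences come from the strongest of all lost regions, and the last from the strongest within 3000 bp of a transcription start site (TSS). Each run is the plus strand of GRCh37 (hg19) over the 300 bp around the centre of the region, or over the whole 245 bp of the region in PDE4D. Capitals mark CpG dinucleotides and matches to the AP-1 motif TGANTCA.
upstream of AASDH, chr4:57276556-57276855: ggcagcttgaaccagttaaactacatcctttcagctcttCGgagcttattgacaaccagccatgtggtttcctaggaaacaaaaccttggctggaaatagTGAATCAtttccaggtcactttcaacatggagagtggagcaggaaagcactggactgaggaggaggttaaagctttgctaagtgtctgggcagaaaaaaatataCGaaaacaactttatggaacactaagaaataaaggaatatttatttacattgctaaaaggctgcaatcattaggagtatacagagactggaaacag
C17orf58 and BPTF locus, chr17:65970710-65971009: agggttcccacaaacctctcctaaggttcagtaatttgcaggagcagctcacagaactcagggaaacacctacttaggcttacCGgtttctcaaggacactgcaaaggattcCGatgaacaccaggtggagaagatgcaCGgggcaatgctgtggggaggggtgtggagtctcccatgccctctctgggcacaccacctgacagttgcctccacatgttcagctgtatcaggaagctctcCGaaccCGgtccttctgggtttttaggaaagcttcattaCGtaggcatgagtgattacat
AUTS2 intron, chr7:70146202-70146501: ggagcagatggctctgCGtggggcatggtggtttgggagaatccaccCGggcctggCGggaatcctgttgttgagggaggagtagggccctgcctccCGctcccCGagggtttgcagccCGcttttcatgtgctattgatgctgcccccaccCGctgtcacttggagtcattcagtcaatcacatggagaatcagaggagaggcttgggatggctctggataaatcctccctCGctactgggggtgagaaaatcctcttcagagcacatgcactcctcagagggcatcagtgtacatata
nearest to PLEKHG7, chr12:93178983-93179282: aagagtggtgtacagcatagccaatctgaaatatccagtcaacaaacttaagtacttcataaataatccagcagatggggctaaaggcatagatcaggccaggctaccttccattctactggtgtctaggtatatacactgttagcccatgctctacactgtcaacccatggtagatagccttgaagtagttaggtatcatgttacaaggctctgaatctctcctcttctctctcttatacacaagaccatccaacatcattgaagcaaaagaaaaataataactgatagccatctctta
PDE4D intron, chr5:59492300-59492544: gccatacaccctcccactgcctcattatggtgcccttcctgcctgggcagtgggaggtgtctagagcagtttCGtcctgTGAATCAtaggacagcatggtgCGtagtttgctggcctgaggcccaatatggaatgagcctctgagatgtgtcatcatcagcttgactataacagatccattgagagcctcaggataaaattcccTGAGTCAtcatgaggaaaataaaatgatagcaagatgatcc
upstream of CYP4V2, chr4:187122919-187123218: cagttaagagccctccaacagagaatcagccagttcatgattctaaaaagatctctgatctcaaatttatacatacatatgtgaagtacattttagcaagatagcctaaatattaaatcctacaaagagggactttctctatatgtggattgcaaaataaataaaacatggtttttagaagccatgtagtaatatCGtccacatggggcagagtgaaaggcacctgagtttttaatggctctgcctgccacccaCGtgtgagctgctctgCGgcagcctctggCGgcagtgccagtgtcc

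The AASDH-proximal region held 1 AP-1 match and 2 CpGs, and the PDE4D region 2 AP-1 matches and 2 CpGs. The region nearest to PLEKHG7 had no CpG at all. The AUTS2 region was the richest of the 6, with 8 CpGs and a GC content of 57.0%. The C17orf58 window had 6 CpGs and the CYP4V2 window 4.

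The AASDH-proximal region lay in an intron, at -22851 bp from the TSS of AASDH, and its peaks had a fold enrichment over background of 5.44 in A549, 4.55 in H1299, 4.87 in CL1-5 and 4.71 in PC9. The region at C17orf58, in an intron of BPTF, a subunit of the NURF chromatin remodeler, reached 3.79, 5.17, 4.40 and 3.99 in the same order. In both, all 4 lines had a Mock peak of similar height. The region in AUTS2 was found only in the libraries labelled CL1-5, at 11.4-fold, and PC9, at 8.90-fold. The region in PDE4D, which encodes a phosphodiesterase that degrades cAMP, was found in the same libraries, at 12.3-fold and 7.20-fold. The region nearest to PLEKHG7 was found in 3 lines, at 8.63-fold in H1299, 10.2-fold in CL1-5 and 7.64-fold in PC9.

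Losses were fewer than gains and were seldom shared widely. The 2646 lost regions comprised 2401 in the Mock lists of 2 lines, 232 in those of 3 lines and 13 in those of 4 lines. The gained counterpart comprised 9195, 2249 and 431 regions, so that there were 4.49 gained regions per lost region. Among lost regions 90.7% were found in only 2 lines, against 77.4% of gained regions. The most frequent combination was CL1-5 with PC9, with 700 regions (26.5%), and the least frequent pair was A549 with H1299, with 145 (5.48%). Since number and strength are what the rule itself used, these values are given as a description, with no test.

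The size of the excess differed between peak lists cut in different ways. When the Mock and DAC lists of each line were brought to the same number of peaks, keeping the highest -log10 p-values, 4355 regions were lost and 5665 gained, a ratio of 1.3. This shortened the longer DAC lists, and a region whose DAC peaks were dropped in this way can count as lost. With the same number of peaks in all 8 lists there were 2032 lost and 2986 gained regions, a ratio of 1.47. With peaks at a -log10 q-value of at least 2 alone, 1238 were lost and 6230 gained, a ratio of 5.03. Gains outnumbered losses in each of these settings, all of which drop weak peaks as well as shorten lists.

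**Figure D1:**
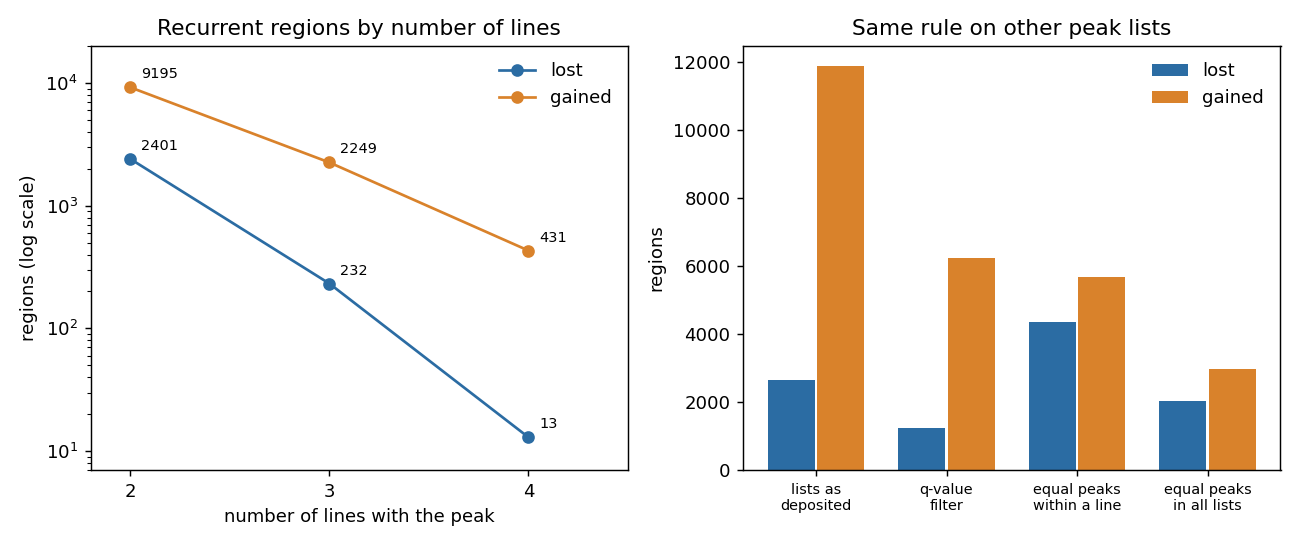
Recurrently lost (blue) and gained (orange) regions. Left, regions by the number of lines with the peak, on a log axis, falling from 2401 to 13 for losses and from 9195 to 431 for gains. Right, the same rule applied to the lists as deposited, to peaks passing the q-value filter and to lists of equal length, where 4355 losses and 5665 gains were found with equal peaks within a line.

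Lost peaks were weak peaks. Their median fold enrichment was 3.35 in A549, against 4.36 for the whole Mock list, 3.08 in H1299 (list 3.64), 3.03 in CL1-5 (list 3.64) and 3.23 in PC9 (list 3.84). Ranked by fold enrichment within its own list, the median lost peak stood at percentile 25.5 in A549, 27.1 in H1299, 27.7 in CL1-5 and 29.3 in PC9. A -log10 q-value of at least 2 was reached by 28.7% to 47.0% of lost peaks, against 66.0% to 76.0% of all peaks in the lists. They were also narrow, with a median width of 313 to 360 bp against 468 to 507 bp. The top decile of a list held 5 lost peaks in A549, 2 in H1299, 22 in CL1-5 and 11 in PC9. Gained peaks were about as weak, at median percentiles of 30.8 to 33.1 in the DAC lists.

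Regions just inside and just outside the rule had neighbouring values. Lost regions in 2 Mock lists had a median percentile of 27.2, and the 34876 regions in 1 Mock list and no DAC list, which the rule left out, had 23.5. The 5435 regions in 2 Mock lists and 1 DAC list had 35.7 in Mock cells and 46.8 in the single DAC list. Most lost regions lay within 10000 bp of a DAC peak, and so did regions of the other sets. The median distance from a lost region to the nearest DAC peak of any line was 3151 bp, 515 lost regions (19.5%) had one within 1000 bp, and 437 (16.5%) had none within 10000 bp. Regions in 1 Mock list and no DAC list had 19.0% and 20.7%, and gained regions, measured to the nearest Mock peak, 12.7% and 18.6%.

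The rule took lost regions at any distance from a gene, and they were mostly distal. By the authors' annotation 1126 (42.6%) were distal intergenic, 1062 (40.1%) intronic, 229 (8.65%) within 3000 bp of a TSS and 142 (5.37%) exonic. Their median distance to the TSS was 28239 bp, and 469 (17.7%) were over 100000 bp away. Gained regions were of the same kind, with 10.2% within 3000 bp and a median of 21606 bp, whereas 30.4% of all regions in the Mock list of at least 2 lines lay within 3000 bp, at a median of 13080 bp. The distance depends on the annotation. With the transcript starts of a later GENCODE release, which lists many more noncoding transcripts, 701 lost regions (26.5%) lay within 3000 bp and the median was 8548 bp, and the nearest gene was the same for 1090 of 2646. Chromosome 2 held 282 lost regions (10.7%), against 8.27% of the regions in the Mock list of at least 2 lines. The densest megabase, 157000001 to 158000000 of chromosome 7, held 9.

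Lost regions were poor in CpG. In the central 300 bp, the median was 1.00 CpG per 100 bp in lost regions, 1.67 in gained regions and 2.0 in all regions in the Mock list of at least 2 lines. No CpG at all was present in 7.23% of lost, 2.77% of gained and 3.05% of all such regions. A composition like that of a CpG island, with at least 50% GC and a high observed to expected CpG ratio, was found in 3.48% of lost regions, 5.35% of gained regions and 25% of all such regions. The GC content was 52.0%, 54.3% and 56.3%. Over 3000 bp from a TSS of the authors' annotation, the island-like composition was found in 2.73%, 4.62% and 7.79%. The GC content was 51.7%, 54.0% and 53.3% there, and the median CpG density 1.00, 1.67 and 1.67 per 100 bp. The shares without a CpG were 7.66%, 2.91% and 4.08% in these distal regions. The order of the shares without a CpG was the same at each level of peak strength. In the distal regions, 5.21% of lost regions had no CpG below percentile 25, 9.80% from 25 to 50, 8.33% from 50 to 75 and 9.43% above, against 2.63%, 4.81%, 4.35% and 3.61% of all Mock regions and 2.03%, 3.36%, 3.29% and 2.89% of gained regions.

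The same direction was found in regions that the rule left out because they stood in 1 list alone, a comparison added after these values were seen. In A549, 7.91% of the 5980 regions found only in the Mock list had no CpG, against 3.90% of the 11474 found only in the DAC list. In H1299 the shares were 7.02% and 6.48%, in CL1-5 7.55% and 5.76%, and in PC9 7.76% and 5.48%. The share was higher in the Mock-only regions in 4 of 4 lines, and the gap in H1299 was the smallest, with its mean CpG density the other way round, at 1.56 per 100 bp in Mock-only and 1.497 in DAC-only regions.

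AP-1 matches were more frequent in the stronger lost regions, as in other distal Mock regions. The motif, searched on both strands, was in 14.8% of lost regions, 10.7% of gained regions and 14.8% of all regions in the Mock list of at least 2 lines. Over 3000 bp from a TSS the shares were 14.7%, 10.9% and 18.6%, so that lost regions then stood under all Mock regions. By strength, the motif was in 9.34% of distal lost regions below percentile 25, 15.7% from 25 to 50, 25.6% from 50 to 75 and 32.1% above, where 17 of 53 regions had it. All distal regions in the Mock list of at least 2 lines, which include the lost ones, gave 9.03%, 15.4%, 23.5% and 25.9%, and gained regions 8.87%, 11%, 13.2% and 19.0%. At any distance the highest bin of all Mock regions had 13.9%, under the 19.2% of the bin before it. In regions found in 1 list alone the lines differed. The motif was in 11.9% of Mock-only and 9.92% of DAC-only regions in A549, in 8.20% and 7.58% in H1299 and in 16.9% and 10.2% in PC9, but in 14.0% and 18.4% in CL1-5. The GC box GGGCGG, bound by SP and KLF factors, was less frequent in lost regions (8.86%) than in gained regions (15.6%) or in all such Mock regions (28.2%). The TEAD motif CATTCC was in 18.4%, 16.0% and 16.5%, and the RUNX motif TGTGGT in 21.2%, 20.6% and 17.8%. The CTCF core AGGGGGCGC was in 11 lost regions (0.416%), against 0.472% and 1.58%. For regions over 3000 bp from a TSS, in the same order of sets, the GC box was in 8.24%, 14.7% and 15.8%. The TEAD motif was then in 18.4%, 16.4% and 18.7%, and the RUNX motif in 21.1%, 20.9% and 20.9%. Both were thus about as frequent in the central 300 bp of distal lost regions as in that of all distal Mock regions. The CTCF core was then in 0.456%, 0.441% and 1.14%. Regions share libraries and are not replicates, so these shares are a description and a match is not a bound site.

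Whether the losses carry over to a line that did not choose them was read in a held-out line. The rule was applied to 3 lines and the resulting regions were looked up in the fourth. In A549, 9.62% of the 1986 regions lost in the other lines had a Mock peak alone and 11.8% a DAC peak alone. In H1299 the shares of 2228 regions were 6.69% and 9.87%, in CL1-5 those of 1658 regions 12.7% and 11.8%, and in PC9 those of 1798 regions 11.9% and 14.96%. Both peaks were present in 4.80% to 20.02% of the regions, and neither in 55.4% to 78.6%.

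A region lost in the other lines was more often gained than lost in the held-out line in 3 of 4 lines. The mean difference, Mock only minus DAC only, was -1.89 ± 1.91 percentage points (SD, n = 4 lines) and was above 0 in 1 of 4 lines (p = 0.25 and adjusted p = 0.25, exact permutation test by sign flips, two-sided). For gained regions it was -17.6 ± 4.63 percentage points, below 0 in 4 of 4 lines (p = 0.13 in the same exact test, adjusted p = 0.188). The difference between lost and gained regions was 15.7 ± 4.02 points, above 0 in 4 of 4 lines (exact p = 0.13, adjusted p = 0.188). The smallest p that 4 lines allow is 0.13, and none of the 3 adjusted values passed 0.05. Each line also helped to define the regions read in the other lines. The 4 values are therefore not independent, although the test treats them so.

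The DAC lists were longer than the Mock lists, and the background differed between the treatments. All regions of the other 3 lines, lost or not, had a DAC peak alone more often than a Mock peak alone, with 4.57% and 11.9% in A549, 3.71% and 10.1% in H1299, 6.71% and 11.8% in CL1-5, and 5.31% and 13.0% in PC9. Against this background the lost regions stood 4.71 ± 1.16 points higher, in 4 of 4 lines, in a comparison added after the data were seen (exact sign-flip p = 0.13, the smallest possible). With the same number of peaks in the Mock and DAC lists of a line, which drops peaks from the DAC lists, the difference for lost regions itself was 3.04 points. With the same number in all 8 lists it was 5.85 points (exact sign-flip p = 0.13 for each). With peaks at a -log10 q-value of at least 2, where the DAC lists stayed the longer ones, it was 1.70 points (exact sign-flip p = 0.375). Gained regions had -13.4, -16.1 and -19.6 points in the same 3 settings. Why the sign for lost regions differed between the settings was not tested.

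The nearest genes of lost regions did not fall as a group. A gene of the mRNA-seq table could be assigned to 2358 of the 2646 regions, giving 1990 genes, of which 1545 passed the expression filter (a mean of at least 0.1 FPKM) and were tested with limma on log2(FPKM + 0.1) over 5 lines with the line as a block. FPKM counts fragments per kilobase of transcript, scaled to the size of the library. At an unadjusted p under 0.05, 61 of 1545 genes were lower after DAC (3.95%, against 4.40% of the 22603 genes tested) and 107 were higher (6.93%, against 8.07%). Their median log2 difference, DAC minus Mock, was 0.05, against 0.07 for all genes and 0.07 for the 5250 nearest genes of gained regions. At an adjusted p under 0.05 the limma test called 0 of them lower (0 of all genes) and 3 higher (background 0.119%, 27 of 22603). Lower in 5 of 5 lines were 72 of them (4.66%, background 4.39%), and higher in 5 of 5 lines 123 (7.96%, background 6.76%). Of the 14105 tested genes nearest to regions in the Mock list of at least 2 lines, 6.03% were lower and 8.42% higher in all 5 lines. At an unadjusted p under 0.05 in limma, 5.20% of these genes were lower and 8.20% higher. The nearest genes of lost regions lay under this set in each of these shares. Scaling moved the split of the nearest genes of lost regions at an unadjusted p. It was 35 lower and 161 higher with FPKM rescaled to a common sum. With quantile normalization it was 103 lower and 65 higher, and the split of all genes moved as well.

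Smaller sets of these genes gave shares on either side of the background, which was 4.40% lower and 8.07% higher. Of the 148 genes tested within 3000 bp of a lost region, 4 were lower (2.7%) and 15 higher (10.1%) at an unadjusted p under 0.05, with a median of 0.14. Of the 168 tested at regions lost in at least 3 lines, 11 were lower (6.55%) and 11 higher (6.55%), with a median of 0.07. The nearest genes of lost regions were expressed at a median of 1.496 FPKM in Mock cells, those of gained regions at 2.22 and those of all regions in the Mock list of at least 2 lines at 2.47. Genes within 3000 bp of a lost region were lower still, at a median of 0.625 FPKM, and all 36076 genes had 0.231. Many genes neighboured both kinds of region. Of the 1990 nearest genes of lost regions, 1157 were also nearest to a gained region, which is 58.1% of the former and 17.8% of the 6488 latter. Of all 36076 genes, 6488 were nearest to a gained region. The overlap was not compared with that of genes near other Mock peaks.

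Within single lines, where there is no replicate, genes were counted past a 2-fold difference. Among the 838 tested genes nearest to lost regions open in A549 Mock cells, 39 were lower in A549 (4.65%, background 6.69%) and 89 higher (10.6%, background 15.5%). In H1299, 26 of 588 were lower (4.42%, background 3.15%) and 43 higher (7.31%, background 8.18%). In CL1-5, 19 of 1023 were lower (1.86%, background 5.05%) and 55 higher (5.38%, background 7.25%). In PC9, 9 of 1000 were lower (0.900%, background 3.10%) and 78 higher (7.80%, background 10.2%). H1299 alone had a lower-share above its background, and genes nearest to gained regions gave the same pattern. For gained regions in each line's own DAC list it was 4.17% in H1299, above the background. In A549, CL1-5 and PC9 it was 3.39%, 1.74% and 0.762%, under the background of each. The medians of the genes nearest to lost regions were 0.13, 0.04, -0.01 and 0.06 in A549, H1299, CL1-5 and PC9. With the mRNA of CL1-5 and PC9 exchanged they became 0.05 for the peaks labelled CL1-5 and -0.03 for those labelled PC9.

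The 3 genes that passed the adjusted threshold were all higher. With a pseudocount of 1, without an expression filter, with genes averaging 1 FPKM or more, and without A549, CL1-5 or PC9, 0 nearest genes passed it in limma, with 65 to 133 higher at an unadjusted p under 0.05. IL2RB, the beta chain of the interleukin-2 receptor, had 0.0596, 0.0270, 0.055, 0.0409 and 0.0223 FPKM in Mock cells of A549, then CL1-0, CL1-5, PC9 and H1299, and 0.757, 0.244, 0.675, 0.524 and 0.403 after DAC. Every treated value lay above every Mock value, and the log2 difference was 2.07 ± 0.23 (SE, limma, adjusted p = 0.0380). Its lost region, in an intron 8473 bp from the TSS, was among the weakest, at percentile 3.37. A gained region was also nearest to this gene.

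TSPYL6, a member of the testis-specific TSPY-like family, was listed at 0 in Mock cells of 4 lines and at 0.0113 FPKM in H1299. After DAC it had 1.31, 0.230, 0.653, 0.937 and 2.38 FPKM in the same order of lines (3.26 ± 0.39 on the log2 scale, limma, adjusted p = 0.0483). ST8SIA6-AS1, an antisense RNA, was listed at 0 in the Mock cells of all 5 lines and at 2.19, 0.768, 0.937, 1.99 and 0.580 after DAC in the same order (3.63 ± 0.32, adjusted p = 0.0208). For these genes the log2 difference depends on the pseudocount and is no fold. Whether strand was used in counting is not given, so antisense reads are uncertain. The lost region of TSPYL6 was at 16689 bp from its TSS, with 2 gained regions beside it, and that of ST8SIA6-AS1, which had no gained region, was at -10628 bp. In H1792 ST8SIA6-AS1 was already at 2.57 FPKM in Mock cells and 4.41 after DAC.

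Genes lower in 5 of 5 lines did not pass the adjusted threshold. BTBD2, which encodes a BTB-domain protein, had 13.8, 11.6, 10.1, 10.6 and 15.05 FPKM in Mock cells, in the same order of lines, and 6.09, 7.37, 5.38, 6.89 and 6.02 after DAC. The treated values all lay under the Mock values, with a log2 difference of -0.93 ± 0.14 (limma, adjusted p = 0.0857). In H1792, which was not in the fit, it had 15.9 and 15.8 FPKM. Its lost region was an intronic peak at -7157 bp, open in A549 and PC9 at 3.48-fold and 3.44-fold, and 2 gained regions were nearest to BTBD2 as well. WDR54 went from 26.6, 21.1, 27.0, 10.8 and 19.6 FPKM to 11.9, 15.9, 19.7, 5.70 and 11.2 (-0.75 ± 0.14, limma, adjusted p = 0.159). IER5L and DPP7 had log2 differences of -0.79 and -0.52, at adjusted p-values of 0.199 and 0.339 in limma. In H1792 the FPKM went from 14.1 to 16.2 for WDR54, from 2.53 to 2.46 for IER5L and from 36.1 to 47.2 for DPP7. By the rule these 4 are among the 5 lowest of the nearest genes within 10000 bp that moved the same way in 5 of 5 lines.

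At the upper end of the same rule, IFI27, an interferon-stimulated gene, had 0.282, 0.174, 1.29, 0 and 0.0718 FPKM in Mock cells and 19.7, 0.351, 29.7, 0.313 and 4.19 after DAC. It was higher in every line, by a very unequal amount (3.51 ± 0.69, limma, adjusted p = 0.175). LINC02525 and SV2A, a synaptic vesicle protein, followed at 2.61 ± 0.50 and 1.92 ± 0.36, with adjusted p-values of 0.162 and 0.161.

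The nearest genes of the strongest lost regions showed no common direction. SPRY2, an inhibitor of receptor tyrosine kinase signalling, lay 290607 bp from a region found in 3 lines at 6.30-fold in H1299, 5.17-fold in CL1-5 and 4.45-fold in PC9. It had 4.93, 5.20, 4.47, 10.1 and 27.5 FPKM in Mock cells, again in the order A549, then CL1-0, CL1-5, PC9 and H1299, and 2.02, 3.10, 2.13, 7.94 and 11.4 after DAC. It was lower in 5 of 5 lines (-0.92 ± 0.16, limma, adjusted p = 0.138), although the groups overlapped.

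SCG2, which encodes a neuroendocrine granin, had the strongest lost region at a TSS, 33 bp from it and overlapping its annotated first exon, at 7.01-fold in A549, 8.53-fold in CL1-5 and 6.42-fold in PC9. A further 2 lost regions lay at -24324 and -72610 bp. Its FPKM went from 0.189 to 1.93 in A549, from 0.249 to 0.323 in CL1-0, from 4.90 to 2.82 in CL1-5, from 0.955 to 1.43 in PC9 and from 2.61 to 2.29 in H1299. It was thus higher in 3 lines and lower in 2 (0.53 ± 0.47, limma, adjusted p = 0.634), and A549, one of the lines that lost the promoter peak, had the largest increase.

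MRPL19, a subunit of the mitochondrial ribosome, had 3 lost regions and a difference of -0.28 ± 0.15 (adjusted p = 0.459, limma). AUTS2 and PDE4D, with 3 lost regions each, had -0.16 ± 0.23 and -0.25 ± 0.26 (adjusted p = 0.781 and 0.690, limma). The 13 regions lost in all 4 lines included 3 within 3000 bp of a TSS, at MCTP1, WDR18 and CEL. MCTP1, which encodes a calcium-binding transmembrane protein, was at -0.33 ± 0.17, WDR18 at -0.51 ± 0.16 and CEL, a bile salt-dependent lipase, at -0.01 ± 0.26, with adjusted p-values of 0.447, 0.305 and 0.994 in limma.

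Some genes gathered several lost regions. FBXW11, which encodes a substrate-recognition subunit of an SCF ubiquitin ligase, had 6, spread over 171151745 to 171412510 of chromosome 5, with 14.6 ± 5.58 FPKM in Mock and 13.9 ± 4.63 FPKM in treated cells (SD, n = 5). RYR2, CDH23, SDK1, LINC01020 and LINC00898 had 5 each. RYR2 had no gained region, whereas SDK1 and LINC00898 had 7, CDH23 and FBXW11 had 5 and LINC01020 had 2. TNS3, TET3, KIF26B and HS6ST1 had 4 lost regions each, and 6, 2, 5 and 8 gained ones in that order. Gene length and the number of other Mock regions at a gene were not taken into account. Of these 10 genes, 7 passed the expression filter, and their log2 differences lay between -0.07 and 0.10, with unadjusted p-values of at least 0.656 in limma.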

How the data were processed

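For Omni-ATAC-seq, the authors trimmed reads, aligned them to hg19 with BWA mem 0.7.17-r1188, handled them with Picard 2.21.4 and SAMtools 1.9, called broad peaks per library with MACS2 2.2.5 at a broad cutoff of 0.1 and annotated them with ChIPseeker 1.20.0. Per peak, each deposited list gives a score and a −log10 p-value, with a −log10 q-value and the fold over background of the peak caller. For mRNA-seq, the authors used RSEM with bowtie2 on hg19, counted genes of GENCODE release 25 and deposited FPKM values normalized with DESeq2 1.24.0, and a mean normalized signal per gene. Their processing notes also name TopHat2 2.1.1. The same table holds the authors' own comparison (log2 fold changes, their errors, a test score, p-values), which was not used.

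Peaks were pooled and merged at an overlap of 1 bp in Python 3.11.15 with numpy 2.4.6 and pandas 2.3.3. Sequence was read with pysam 0.24.0 from GRCh37, in which no peak lay beyond the length of its chromosome (24 checked), and 4 lost regions on other contigs were left out of it. Genes averaging 0.1 FPKM or more in A549, PC9, CL1-0, CL1-5 and H1299 were fitted as log2(FPKM + 0.1) by limma 3.58.1 (R 4.3.3) with a block for the line, an intensity trend and Benjamini-Hochberg adjustment at 0.05. Mock and DAC libraries of a line come from the same cells, and the correlation of their deviations from the treatment means was 0.731 to 0.900, and 0.115 or less between lines. On simulated data with 4-fold changes the fit called 132 of 186 changed genes (71.0%) with the right sign, and 7 unchanged genes, among 22605. Whole reads could be recovered from the FPKM values (100% came out whole), with 22234485 to 25303899 reads on genes in 10 libraries and 52634234 and 59735913 in H1299, where 81.9% to 85.5% of low read numbers were even. These libraries are separate cell lines, and p-values measure the spread between lines. CL1-0 and CL1-5 share a name stem and a source in the paper, and whether they are independent of each other was not tested. Held-out lines were compared by an exact permutation test over 4 lines (sign flips, two-sided), adjusted over 3 tests. Figures were drawn with matplotlib 3.10.9.

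The members, gene lists, motifs and tests were chosen with earlier results of these data known. Genes are named by a rule: those nearest to the strongest lost regions, to lost regions in at least 3 lines and to several lost regions, those past the adjusted threshold, the 5 largest and 5 smallest changes within 10000 bp that moved the same way in 5 of 5 lines, and the gene lists. One sex-linked transcript and some other genes among them are not reported here. WDR18, MCTP1, CEL, AASDH, C17orf58 and CYP4V2 were chosen after their values were seen. The alternatives were other peak filters, list lengths, overlaps and numbers of lines, each line left out in turn, other gene assignments, pseudocounts, filters and scalings, no trend, no block, limma voom on the recovered reads, and whole regions in place of the central window.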

Additional observations from a re-analysis of the deposited data

How the results depend on the processing

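The number of lost regions was 1238 with peaks at a -log10 q-value of at least 2 (gained 6230), 4355 with equal peaks in the lists of a line (gained 5665, ratio 1.3), 6538 when an overlap had to cover 50% of the region (gained 24696) and 245 when at least 3 lines were required (gained 2680, ratio 10.9). With equal peaks in all lists 2986 were gained, at a ratio of 1.47. Without 1 line the lost regions numbered 1658 to 2228, the lowest without CL1-5. The held-out difference of lost regions turned positive, to 1.70 with the q-value filter, 3.04 with equal peaks in a line and 5.85 with equal peaks in all lists, whereas gained regions and the difference between lost and gained kept their direction in all 8 alternatives.

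Without the cell line as a block (no replicate block), 3 nearest genes were lower and 18 higher at an unadjusted p under 0.05, with 1 at an adjusted p and 10 over all genes. Over the 4 lines with Omni-ATAC-seq 35 were lower, 1 was higher at an adjusted p and 5 over all genes, and over 6 lines 53 over all genes. Within 10000 bp of a TSS 15 were lower, 40 higher and 1 past the adjusted threshold. The genes called higher at an adjusted p numbered 0 with a pseudocount of 1 (all genes 0), 0 without a filter (all genes 2), 0 with FPKM averaging 1 or more (65 higher at an unadjusted p), 1 without a trend (all genes 6), 1 with quantile normalization (all genes 17) and 13 with limma voom on recovered reads (all genes 199, and 210 higher at an unadjusted p). Without 1 line, 35 to 55 were lower and 70 to 114 higher at an unadjusted p, 0 to 1 higher at an adjusted p, and of all genes 0 to 12 higher (22 without H1299) and 0 to 1 lower. No nearest gene was lower at an adjusted p in any of the 18 alternatives. Rescaling to a common sum gave 35 lower, 161 higher and a median of 0.16, with the median of all genes at 0.17. Quantile normalization gave 103 lower, 65 higher and a median of -0.030, with all genes at -0.04, and voom gave a median of 0.15, with all genes at 0.17. Relative to all genes, the nearest genes therefore moved little in each. With the mRNA of CL1-5 and PC9 exchanged, the within-line medians became 0.052 and -0.034. Over whole regions in place of the central window, an AP-1 match was in 23.8% of lost and 20.9% of gained regions. All regions in the Mock list of at least 2 lines had 34.9%. The shares without a CpG were 2.57%, 0.801% and 0.431%. Over 3000 bp from a TSS, AP-1 was in 23.9%, 21.2% and 39.6%, TEAD in 30.8%, 32.1% and 44.9%, and RUNX in 36.2%, 39.6% and 49.4%. Whole regions differ in width, and at any distance the medians were 516, 594 and 971 bp. The cause of these shifts was not tested, beyond the fewer lines, genes or peaks that some alternatives hold. The peak lists do not give the depth of each ATAC library, which limits the reading of every lost or gained peak, and 1 library per line and treatment leaves the spread within a line unmeasured.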

Other observations

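The gene lists add members of known families to the nearest genes. Of 25 actin and adhesion genes, 5 were nearest to a lost region and 11 to a gained one, as were 1990 and 6488 of all 36076 genes. Among them were ACTN1, ITGA6, ITGB5 and CD44, an actin crosslinker, 2 integrin subunits and a hyaluronan receptor. The log2 differences of these 4 between DAC and Mock lay between -0.07 and 0.03 (limma, unadjusted p of at least 0.634). Over the whole list 5 genes were higher (20%, against 8.07% of all genes) and 0 lower (4.40% of all genes) at an unadjusted p under 0.05, and none of these 5 was nearest to a lost region. They include ICAM1, CORO1A, HCLS1 and FES. The paper had already reported ICAM-1 protein, and the mRNA of the other named genes in lines of this series, as raised by DAC. The list thus held known risers, and the 20% is not read as a result about the family. Of 11 chromatin remodelers and methylation genes, 2 were nearest to a lost region, TET1 and TET3, which encode enzymes that oxidize 5-methylcytosine. TET3 had 4 lost regions and 2 gained ones, and its log2 difference was -0.07 ± 0.22, that of TET1 0.14 ± 0.28. RUNX1, with 2 lost and 2 gained regions, was the only nearest gene among 4 RUNX factors (0.02 ± 0.20), and FN1, with 1 lost region, the only one among 5 mesenchymal markers (0.00 ± 0.29).

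None of 9 AP-1 factors, 6 TEAD factors, 7 CTCF and cohesin genes, 8 forkhead and lung factors, 7 epithelial, 4 blood or 5 fibroblast markers was nearest to a lost region. Of all 36076 genes only 1990 were, so none in a list this short is not read as a result about the family. At an unadjusted p under 0.05 in limma, where 8.07% of all genes were higher and 4.40% lower, 1 of 9 AP-1 factors was higher and 0 lower, 1 of 7 CTCF and cohesin genes higher, 1 of 11 chromatin genes higher, and 0 of 6 TEAD, 7 tested forkhead and lung and 4 RUNX factors changed, with 0 past an adjusted p of 0.05 in any list. FOS had 121, 22.1, 36.8, 18.8 and 0.486 FPKM in Mock cells of A549, then CL1-0, CL1-5, PC9 and H1299, and 23.7, 20.03, 20.1, 72.1 and 1.86 after DAC, lower in 3 lines and higher in 2. Epithelial markers summed to 1.19 to 3590 FPKM over Mock libraries and to 3.40 to 2239 after DAC, with CL1-0 lowest (KRT8 at 0.154 FPKM in Mock cells), and 2 of 7 were higher at an unadjusted p. Of 5 mesenchymal markers 1 was higher. Blood markers summed to 0.594 to 1.10 and 0.954 to 1.71 FPKM (1 of 2 tested higher), and fibroblast markers to 0.279 to 3.30 and 1.74 to 3.98 (3 of 3 tested higher). Their part in the peak lists was not tested.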
